A study of Mus musculus with 28 samples.

Results

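Genomic imprinting is the expression of a gene mainly from the maternal or the paternal copy, set by DNA methylation and other chromatin marks laid down in the germ line. Imprinted genes often lie in clusters under a shared control region, and many act on growth, placenta and metabolism. Extraembryonic tissues are a classic setting for imprinting, since some genes, such as those of the Kcnq1 cluster, carry a parental bias there that they lack in the embryo. The genes described here are 47 mouse genes known to be imprinted in at least 1 tissue, taken from a list by symbol. Of these, 45 had a probe named on the array, 101 probes in all, and H19 and Snrpn had none. The arrays could measure 26 of the 47, since a gene was kept where its probe had a detection p below 0.01 on at least 3 of 28 arrays. In the whole series 9951 genes were kept in that way. The arrays measure total RNA of a gene and do not tell the maternal copy's transcripts from the paternal ones.

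The cells were XEN-eYFP, a mouse line of extraembryonic endoderm stem cells that carries a yellow fluorescent reporter, and every sample came from that 1 line after 96 h. There were 5 arrays each with Nodal at 50 ng/ml, with Cripto at 100 ng/ml, with Cripto and the inhibitor SB431542, with SB431542 alone and with Media alone, and 3 arrays with Nodal and SB431542. Nodal belongs to the TGF-beta ligands, Cripto is an EGF-CFC protein known as its co-receptor and SB431542 blocks the type I receptor Alk4 and its relatives. Separate cultures are not stated in the labels. The p-values then reflect sample-to-sample spread alone, which may be technical. RNA from 200 ng of total RNA per sample was hybridised to Illumina MouseWG-6 v2 arrays on 7 BeadChips.

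The cells carried markers of their line. All 8 endoderm markers checked (Gata4, Gata6, Sox7, Sox17, Foxa2, Dab2, Pdgfra and Lama1) were detected on 28 of 28 arrays, and the 6 fibroblast markers with a probe were detected on none. The endoderm markers also moved: 1 rose and 3 fell with Nodal, and 4 fell with Cripto, against Media (28.7% of all genes higher and 28.9% lower with Nodal, 32.5% lower with Cripto), and 5 fell with Cripto and SB431542 against SB431542 (33.7% of all genes lower). Their summed linear level was 78700 to 104200 in Nodal arrays, 73960 to 81760 in Cripto arrays and 95310 to 107500 in Media arrays, and its part in the results was not tested. Of 5 trophoblast markers with a probe, Cdx2 alone was detected, on the 5 Cripto arrays and the 5 with Cripto and SB431542, where it was at least 1.42-fold higher than Media and at least 2.38-fold higher than SB431542. It was detected on no Nodal or Media array. So it passed the detection filter only through groups where it was high. The summed linear level of the trophoblast markers was 143.9 to 168 in Nodal arrays, 165.4 to 221 in Cripto arrays and 126 to 164.3 in Media arrays. This sum was 206.1 to 295.7 with Cripto and SB431542, 131.8 to 142.9 with Nodal and SB431542 and 120.9 to 134.3 with SB431542 alone. Eomes, Elf5, Tfap2c and Hand1 were detected on no array, and the part of any such cells in the results below was not tested. Of 5 pluripotent markers 2 were measured, and of 4 blood markers 0. Pou5f1 fell by 0.75 ± 0.24 with Nodal and 0.77 ± 0.25 with Cripto against Media. Its probe used was detected on 4 of 5 Nodal, 4 of 5 Cripto and all Media arrays, and another of its probes on 28 arrays. Zfp42, detected on 21 arrays, rose by 0.53 ± 0.17 and 0.71 ± 0.17. What these markers mean for the results was not tested. The mean signal of an array ran over all 28 arrays between 183.8 and 995, and on the 5 BeadChips that held both, the ratio of mean signal, Nodal over Media, was 1.05 to 2.09. Quantile normalisation sets the arrays' distributions equal, and the part of this brightness in the results was not tested.

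Nodal replicate 1 stood apart from the other 4 Nodal arrays for some genes, given below. For the 1986 genes that changed at least 2-fold without it, it had reached a median of 67% of the way from Media to the other Nodal arrays, with quartiles of 23.9% and 107%. For 18.3% of them it was under 10% of the way. These genes were chosen by the other 4 Nodal arrays, so some shortfall follows from the choice. The same measure is not given here for the other Nodal arrays. Results that rest on Nodal arrays are given with and without it where it matters.

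Grb10 (a growth factor receptor adaptor that restrains insulin and IGF signalling, maternal in most tissues) lies on chromosome 11 with Ddc (aromatic L-amino acid decarboxylase) before it and Cobl (the actin nucleator cordon-bleu) after it in the RefSeq order of GRCm38.p6. Phlda2 (a pleckstrin homology protein that restrains placental growth) lies in the Kcnq1 cluster of chromosome 7, in the same cluster as Cdkn1c (the cyclin-dependent kinase inhibitor p57). The sequences at the most upstream RefSeq start of the 4 genes are printed because the changes below turn on Grb10, Ddc and Cobl, which lie together, and on Phlda2. Each is 300 bases (250 before the start and 50 after), 5′ to 3′ on the minus strand, from RefSeq of GRCm38.p6. Capitals mark TGCCGC or its reverse complement GCGGCA, the core of the Zfp57 motif, CAGAC or GTCTG, the Smad box, and AGATAA or TTATCT, the Gata motif. None of the motif matches overlapped another.
Grb10, chr11:12037371-12037670: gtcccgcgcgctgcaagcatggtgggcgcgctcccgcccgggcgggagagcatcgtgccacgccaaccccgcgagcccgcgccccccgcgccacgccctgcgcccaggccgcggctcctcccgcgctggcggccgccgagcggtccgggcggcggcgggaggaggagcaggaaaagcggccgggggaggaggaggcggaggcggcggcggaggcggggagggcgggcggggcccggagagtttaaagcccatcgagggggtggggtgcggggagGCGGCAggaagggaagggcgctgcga
Ddc, chr11:11898095-11898394: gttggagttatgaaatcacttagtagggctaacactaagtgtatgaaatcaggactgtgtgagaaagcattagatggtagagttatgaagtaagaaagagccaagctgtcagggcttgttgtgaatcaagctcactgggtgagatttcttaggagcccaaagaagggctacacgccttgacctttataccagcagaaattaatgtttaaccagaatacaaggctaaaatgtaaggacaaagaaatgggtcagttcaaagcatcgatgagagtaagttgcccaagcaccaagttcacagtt
Cobl, chr11:12464911-12465210: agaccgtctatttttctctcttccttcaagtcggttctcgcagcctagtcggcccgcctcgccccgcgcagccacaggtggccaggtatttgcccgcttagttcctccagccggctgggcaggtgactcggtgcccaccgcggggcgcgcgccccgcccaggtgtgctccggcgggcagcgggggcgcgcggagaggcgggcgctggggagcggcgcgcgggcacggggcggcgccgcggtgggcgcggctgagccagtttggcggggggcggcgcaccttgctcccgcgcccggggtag
Phlda2, chr7:143502475-143502774: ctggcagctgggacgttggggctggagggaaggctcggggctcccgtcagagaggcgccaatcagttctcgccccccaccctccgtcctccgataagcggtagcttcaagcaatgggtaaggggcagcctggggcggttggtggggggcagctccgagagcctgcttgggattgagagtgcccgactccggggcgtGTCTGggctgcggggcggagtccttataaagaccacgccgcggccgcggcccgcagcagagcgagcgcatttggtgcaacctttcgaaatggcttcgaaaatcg

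The Grb10 and Cobl sequences were CpG-dense, with observed over expected CpG of 0.97 and 0.99, and that of Phlda2 was 0.82. The Ddc sequence had 0.16 and was CpG-poor. Over all 32841 promoters of the table the median was 0.38, and 35.8% had at least 0.6, against 35 of 63 promoters of the 38 listed genes with an entry. Each gene except Phlda2 has a second start in the table: that of Grb10 had 0.45, that of Ddc 0.23 and that of Cobl had no CpG. The printed Grb10 sequence held 1 GCGGCA, a motif found in 11.6% of all promoters, and that of Phlda2 held 1 match to the CAGAC motif, found in 49.6%. AGATAA was in 11.2% of all promoters, and none of the printed sequences held it. Of the second starts, not printed, those of Grb10 and Ddc each held 1 match to the CAGAC motif and that of Cobl 1 match to AGATAA. Which start a probe reports on is not known here.

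Grb10 was high in Nodal and Cripto cells and not above background in Media. Its probe read 4.76, 10.70, 10.54, 10.60 and 10.61 log2 units on the 5 Nodal arrays, and was detected on 4 of them, while the 5 Cripto arrays read 9.97, 10.15, 10.39, 10.42 and 10.43, all detected. The 3 arrays with Nodal and SB431542 read 4.76, 4.81 and 4.73, and the 5 with Cripto and SB431542 read 10, 10.13, 10.17, 10.44 and 10.55. The SB431542 arrays read 5.21, 5.21, 4.63, 4.88 and 4.96, and the Media arrays 4.57, 4.87, 4.62, 4.56 and 4.64. The probe was detected on no array of Nodal with SB431542, SB431542 or Media. It thus passed the detection filter only through groups where it was high, so its calls and adjusted p-values are no further support. The level was high in 4 Nodal arrays, all Cripto arrays and all arrays with Cripto and SB431542, with no overlap with the remaining arrays except for Nodal replicate 1, which lay at 4.76. Nodal cells were at least 12.2-fold higher than Media over all 5 arrays (log2 change 4.79 ± 0.65, adjusted p = 2.93e-06), and at least 27.4-fold higher with the 4 arrays without replicate 1 (5.95 ± 0.13, adjusted p = 3.92e-17). Cripto cells were at least 21.7-fold higher than Media (5.69 ± 0.67, adjusted p = 2.66e-07). Here and below, a log2 change is given ± its SE, from limma over all 28 arrays with BeadChip as a term, and the adjusted p is by Benjamini-Hochberg over the 9951 genes. A second Grb10 probe gave another picture: it was detected on 3 arrays, 1 of them Media, and changed by 0 log2 units with Nodal (adjusted p = 0.999) and by 0.36 with Cripto (adjusted p = 0.0865). In bulk RNA, fewer cells of a type and less RNA per cell cannot be told apart.

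**Figure D1:**
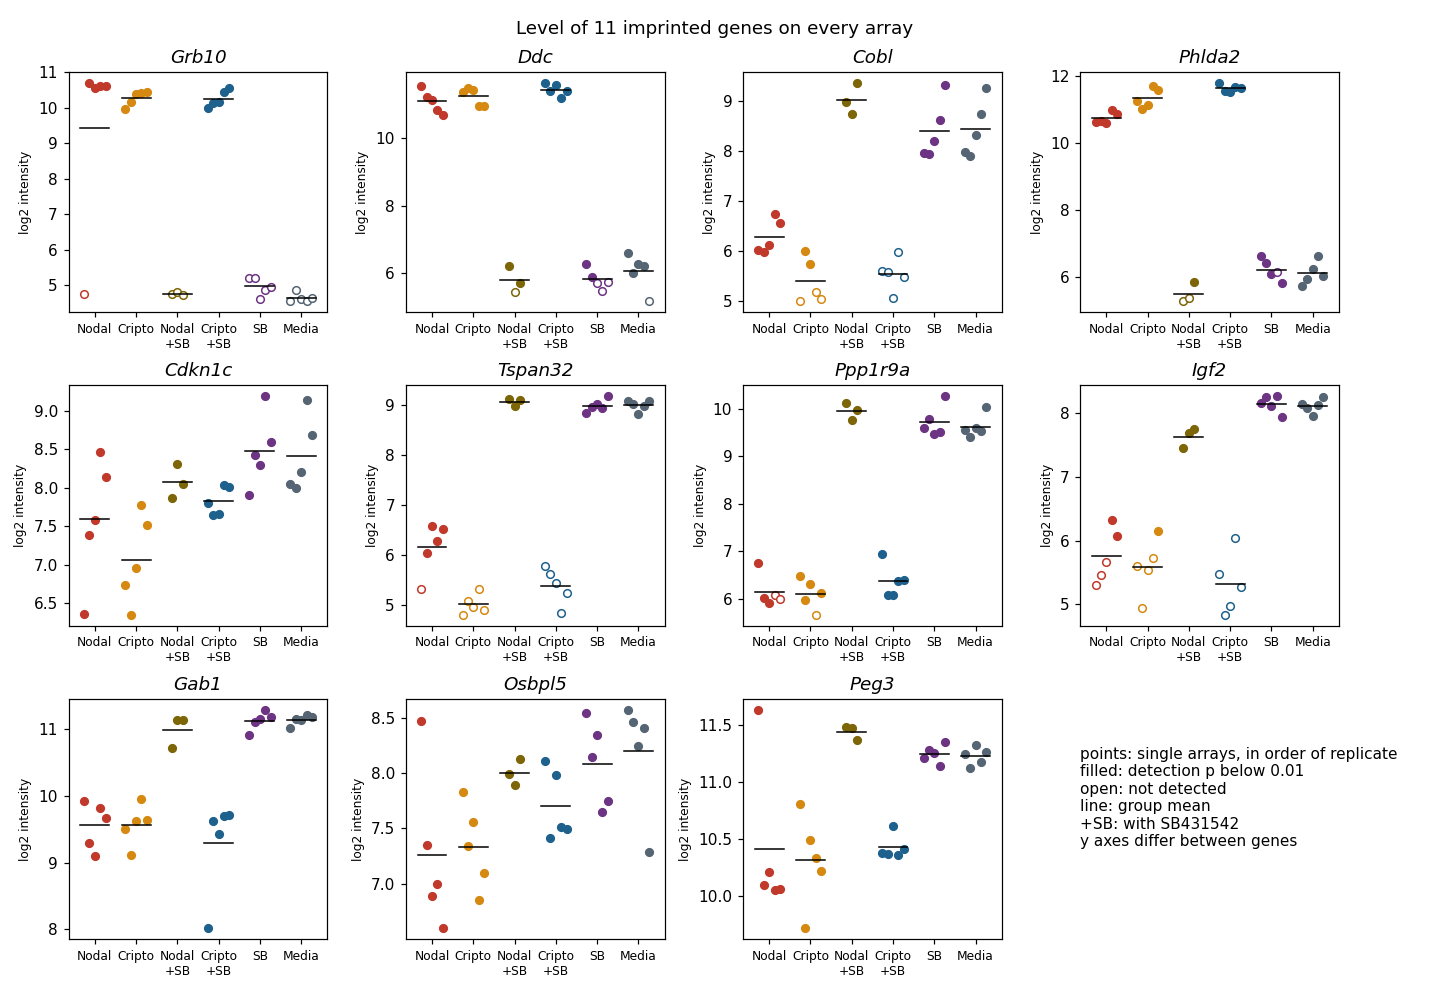
Level of 11 imprinted genes on every array, as log2 intensity (y axis, a scale of its own for each gene) in the 6 groups (x axis); filled points were detected at a detection p below 0.01, open points were not, and the line is the group mean. Grb10, Ddc and Phlda2 were high with Nodal and with Cripto whether or not SB431542 was added to Cripto, and low with Nodal and SB431542; Nodal replicate 1 had Grb10 at 4.76, below the other 4 Nodal arrays.

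Ddc, which lies next to Grb10, was high in the same groups, and on all 5 Nodal arrays. It read 11.56, 11.23, 11.14, 10.85 and 10.70 with Nodal and 11.37, 11.50, 11.43, 10.97 and 10.95 with Cripto, against 6.61, 6.0, 6.27, 6.20 and 5.17 in Media. With Cripto and SB431542 it read 11.65, 11.42, 11.57, 11.21 and 11.40, against 6.28, 5.88, 5.72, 5.48 and 5.75 with SB431542 alone, and with Nodal and SB431542 it read 6.22, 5.44 and 5.70. The high arrays lay at 10.70 and above, and no array of the 3 low groups exceeded 6.61. The change was 5.05 ± 0.13 for Nodal against Media (adjusted p = 4.57e-17) and 5.19 ± 0.14 for Cripto (adjusted p = 2.54e-17), and 5.76 ± 0.14 for Cripto with SB431542 against SB431542. The Ddc probe used was detected on 4 of 5 Media arrays, 2 of 5 with SB431542 and 2 of 3 with Nodal and SB431542. Fitted sizes that use these groups rest on values near background. A second Ddc probe changed by 5.06 with Nodal and 5.27 with Cripto against Media. By size of log2 change among the 9951 genes, Ddc ranked 10 with Nodal and 13 with Cripto.

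Cobl, on the other side of Grb10, changed the opposite way. It read 6.02, 5.99, 6.13, 6.74 and 6.56 with Nodal and 5.0, 6.01, 5.75, 5.19 and 5.04 with Cripto, against 7.98, 7.90, 8.31, 8.73 and 9.26 in Media. Arrays with Cripto and SB431542 read 5.60, 5.59, 5.06, 5.98 and 5.48, none detected, arrays with Nodal and SB431542 read 8.98, 8.73 and 9.36, and those with SB431542 alone 7.96, 7.93, 8.20, 8.62 and 9.32. All Nodal and Cripto arrays lay below all Media arrays. Cobl fell by 2.15 ± 0.24 with Nodal (adjusted p = 2.39e-07) and fell by 3.08 ± 0.25 with Cripto (adjusted p = 1.21e-09), and at least 5.6-fold with Cripto and SB431542 against SB431542. Cobl was detected on 2 of 5 Cripto arrays, so fitted sizes that use them rest on values near background. It was higher in Nodal than in Cripto cells by 0.93 ± 0.25 (adjusted p = 0.00952), a call that other processing settings lost, as given below. Without Nodal replicate 1 the change with Nodal was -2.18 ± 0.27.

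**Figure D2:**
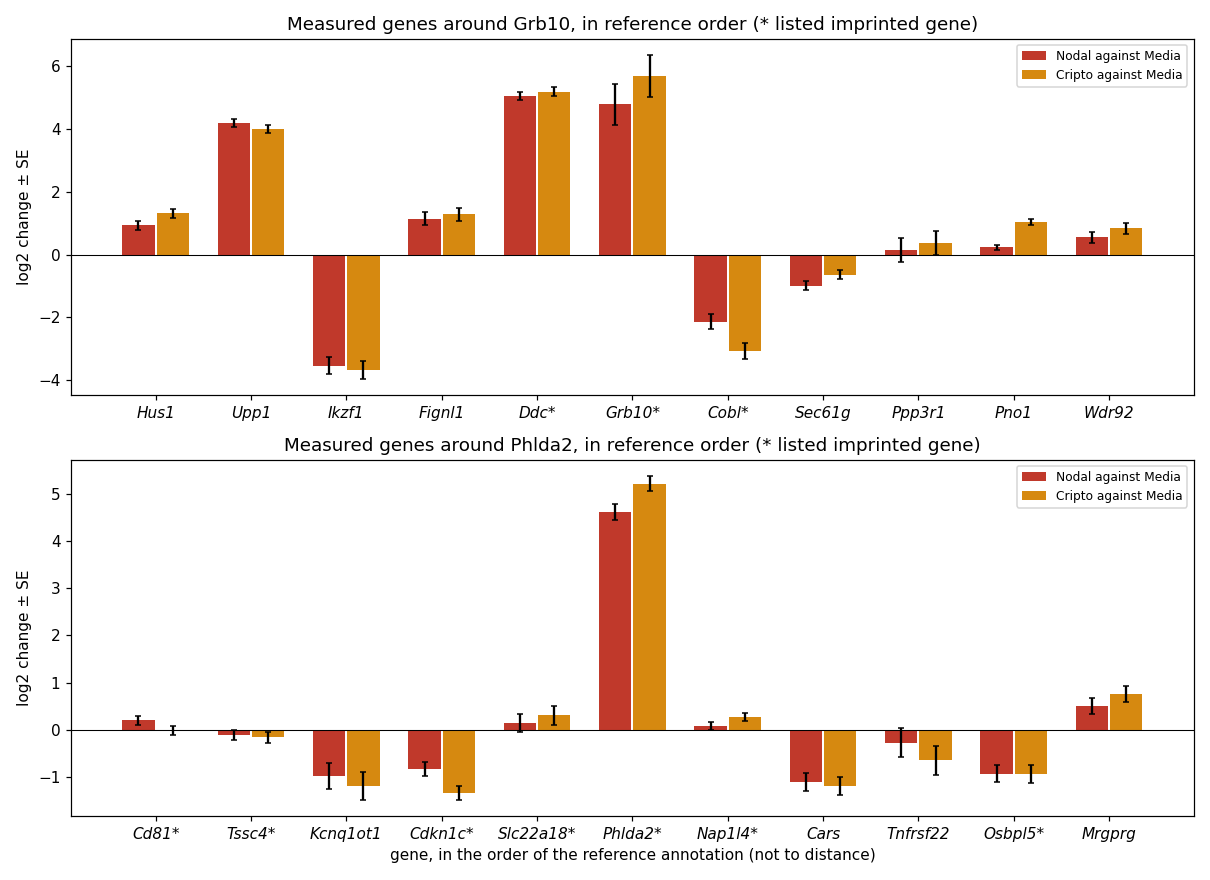
Log2 change ± SE of the measured genes up to 5 places on either side of Grb10 (top) and of Phlda2 (bottom), Nodal against Media and Cripto against Media, in the order of the reference annotation and not to distance; an asterisk marks a listed imprinted gene, and values against a group not above background (Grb10; with Cripto also Ikzf1 and Kcnq1ot1) are fitted values. Around Grb10, Upp1, Ddc and Grb10 rose and Ikzf1 and Cobl fell, with other genes between them; around Phlda2, Phlda2 alone rose by more than 1.

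The measured genes around Grb10 did not all move one way. Upp1, uridine phosphorylase 1, rose by 4.20 ± 0.12 with Nodal and by 3.99 ± 0.13 with Cripto, although it is not on the list. Ikzf1, the Ikaros transcription factor of the lymphoid lineage, fell by 3.54 ± 0.27 with Nodal, where 1 of 5 arrays detected it, and was at least 8.53-fold lower with Cripto, where none did. Fignl1, the gene before Ddc, rose by 1.14 ± 0.21 and 1.28 ± 0.21. Among the 3 listed genes of the locus, Ddc and Grb10 rose and Cobl fell, and unlisted genes on either side rose, fell or did not pass the test.

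Phlda2 had a large change of the same direction as Grb10 and Ddc. It read 10.62, 10.65, 10.58, 10.97 and 10.87 with Nodal and 11.25, 11.01, 11.13, 11.69 and 11.58 with Cripto, against 5.75, 5.96, 6.24, 6.63 and 6.05 in Media. With Nodal and SB431542 it read 5.29, 5.37 and 5.87, with Cripto and SB431542 11.79, 11.54, 11.53, 11.65 and 11.63, and with SB431542 alone 6.63, 6.42, 6.09, 6.16 and 5.83. The high arrays began at 10.58, and no array of the 3 low groups exceeded 6.63. Phlda2 rose by 4.61 ± 0.16 with Nodal (adjusted p = 1.41e-15) and by 5.21 ± 0.16 with Cripto (adjusted p = 3.42e-16), and was lower in Nodal than in Cripto cells (log2 change -0.60 ± 0.16, adjusted p = 0.00964). Unlike Grb10 it was at its full level in Nodal replicate 1, at 10.62. Phlda2 was detected on 1 of 3 arrays with Nodal and SB431542, so fitted sizes that use that group rest on values near background.

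Cdkn1c of the same cluster fell where Phlda2 rose. It read 6.36, 7.39, 7.58, 8.47 and 8.14 with Nodal and 6.73, 6.35, 6.95, 7.78 and 7.52 with Cripto, against 8.05, 8.0, 8.20, 9.14 and 8.69 in Media. With Nodal and SB431542 it read 7.87, 8.31 and 8.05, with Cripto and SB431542 7.80, 7.64, 7.66, 8.04 and 8.01, and with SB431542 alone 7.91, 8.43, 8.29, 9.19 and 8.60. The Cripto arrays lay below all Media arrays, whereas the Nodal arrays overlapped them. The change was -0.83 ± 0.15 with Nodal (adjusted p = 8.76e-05) and -1.33 ± 0.15 with Cripto (adjusted p = 2.09e-07). The Nodal change was -0.63 ± 0.11 without replicate 1, and -0.24 (adjusted p = 0.343) when arrays were centred on their median in place of quantile normalisation. With Cripto and SB431542 against SB431542, Cdkn1c changed by -0.62 ± 0.16 (adjusted p = 0.00168). That call was lost with arrays centred on their median (-0.19, adjusted p = 0.472) and without the BeadChip term (adjusted p = 0.0873). Kcnq1ot1, the antisense transcript of the same cluster, which is not on the list, changed by -0.98 ± 0.28 with Nodal and was at least 1.44-fold lower with Cripto, where no array detected it.

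Of the other listed genes of the Kcnq1 cluster, Tspan32 and Osbpl5 fell with both Nodal and Cripto. Tspan32, a tetraspanin, read 5.32, 6.05, 6.59, 6.29 and 6.52 with Nodal and 4.81, 5.09, 4.96, 5.32 and 4.90 with Cripto, against 9.08, 9.02, 8.82, 8.99 and 9.09 in Media. With Nodal and SB431542 it read 9.12, 8.99 and 9.11, with Cripto and SB431542 5.79, 5.63, 5.44, 4.85 and 5.24, and with SB431542 alone 8.84, 8.96, 9.02, 8.95 and 9.18. Cripto arrays were all below the detection limit while Media arrays were all detected, so Tspan32 was at least 8.5-fold lower with Cripto (log2 change -3.97 ± 0.19, adjusted p = 2.41e-13), and fell by 2.85 ± 0.18 with Nodal. It was higher in Nodal than in Cripto cells by 1.13 ± 0.19 (adjusted p = 0.000211), or at least 1.18-fold with the Cripto arrays taken at the detection limit. A second Tspan32 probe, detected on no Nodal or Cripto array, was at least 2.23-fold lower with Nodal and at least 2.09-fold lower with Cripto. That probe passed the detection filter only through groups where it was high, so it is no further support. Osbpl5, an oxysterol-binding protein, read 8.47, 7.35, 6.89, 7.0 and 6.60 with Nodal and 7.83, 7.34, 7.56, 6.85 and 7.10 with Cripto, against 8.57, 8.46, 8.24, 8.41 and 7.29 in Media. It read 7.99, 7.89 and 8.13 with Nodal and SB431542, 8.11, 7.41, 7.98, 7.51 and 7.49 with Cripto and SB431542, and 8.54, 8.14, 8.34, 7.65 and 7.75 with SB431542 alone. The groups overlapped, since Media replicate 5 lay at 7.29 and Nodal replicate 1 at 8.47. Osbpl5 fell by 0.93 ± 0.18 with Nodal (adjusted p = 0.00021) and fell by 0.94 ± 0.19 with Cripto (adjusted p = 0.000194). With arrays centred on their median the Cripto change was -0.35 (adjusted p = 0.0596). Cd81, Tssc4, Slc22a18 and, with Nodal, Nap1l4 did not pass the test against Media, and Nap1l4 (a nucleosome assembly protein) rose by 0.27 ± 0.09 with Cripto.

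Outside these clusters, Igf2, Ppp1r9a, Gab1 and Peg3 fell. Igf2, the fetal growth factor, read 5.30, 5.46, 5.66, 6.32 and 6.07 with Nodal and 5.60, 4.94, 5.54, 5.73 and 6.16 with Cripto, against 8.15, 8.08, 7.96, 8.13 and 8.26 in Media. With Cripto and SB431542 it read 5.48, 4.84, 4.97, 6.04 and 5.28, with Nodal and SB431542 7.45, 7.69 and 7.76, and with SB431542 alone 8.16, 8.26, 8.11, 8.27 and 7.94. Nodal, Cripto and Cripto with SB431542 arrays lay below all others. Igf2 fell by 2.36 ± 0.16 with Nodal (adjusted p = 1.74e-10), fell by 2.53 ± 0.17 with Cripto, and at least 4.68-fold with Cripto and SB431542 against SB431542. It was detected on 2 of 5 Nodal arrays and 1 of 5 Cripto arrays, so the fitted sizes with Nodal and with Cripto rest on values near background.

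Igf2r, the receptor that clears IGF2 and is maternal in the mouse, fell by 0.30 ± 0.10 with Nodal (adjusted p = 0.016) and fell by 0.40 ± 0.10 with Cripto (adjusted p = 0.00214). A second Igf2r probe changed by -0.62 with Nodal and -0.88 with Cripto. With arrays centred on their median the first probe changed by 0.30 with Nodal and 0.23 with Cripto, so the direction turned and neither passed. Ppp1r9a, neurabin, read 6.76, 6.01, 5.91, 6.07 and 5.99 with Nodal and 6.48, 5.97, 6.31, 5.66 and 6.11 with Cripto, against 9.56, 9.42, 9.59, 9.54 and 10.04 in Media. With Nodal and SB431542 it read 10.12, 9.76 and 9.98, with Cripto and SB431542 6.94, 6.08, 6.08, 6.38 and 6.40, and with SB431542 alone 9.59, 9.79, 9.47, 9.52 and 10.27. Nodal, Cripto and Cripto with SB431542 arrays lay below all others, and the log2 change was -3.48 ± 0.18 with Nodal (adjusted p = 1.26e-12) and -3.54 ± 0.18 with Cripto (adjusted p = 1.1e-12). The probe was detected on 3 of 5 Nodal and 4 of 5 Cripto arrays, so these sizes rest on values near background. Without background correction the Nodal change was -2.33, and in the authors' processed values it was -1.69. A second Ppp1r9a probe, detected on no Nodal or Cripto array, was at least 1.36-fold lower with Nodal and at least 1.28-fold lower with Cripto. That probe was detected on 1 array with Cripto and SB431542, and otherwise only in groups where it was high.

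Gab1, an adaptor of growth factor receptors, read 9.93, 9.29, 9.10, 9.82 and 9.67 with Nodal and 9.50, 9.11, 9.63, 9.96 and 9.64 with Cripto, against 11.01, 11.15, 11.14, 11.21 and 11.18 in Media. Arrays with Nodal and SB431542 read 10.72, 11.13 and 11.13, those with Cripto and SB431542 8.02, 9.62, 9.43, 9.70 and 9.71 and those with SB431542 alone 10.91, 11.11, 11.15, 11.29 and 11.18. No Nodal or Cripto array reached the lowest Media array. Gab1 fell by 1.58 ± 0.19 with Nodal (adjusted p = 6.46e-07) and fell by 1.59 ± 0.20 with Cripto (adjusted p = 5.1e-07).

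Peg3, a zinc finger protein of paternal origin, read 11.63, 10.10, 10.21, 10.05 and 10.06 with Nodal and 10.81, 9.72, 10.49, 10.33 and 10.22 with Cripto, against 11.24, 11.12, 11.32, 11.17 and 11.26 in Media. With Nodal and SB431542 it read 11.48, 11.47 and 11.37, with Cripto and SB431542 10.38, 10.37, 10.61, 10.36 and 10.41 and with SB431542 alone 11.21, 11.28, 11.25, 11.14 and 11.35. Cripto arrays lay below all Media arrays, and so did 4 Nodal arrays, while Nodal replicate 1 at 11.63 lay above them all. The change was -0.81 ± 0.18 with Nodal (adjusted p = 0.000723), -1.07 ± 0.12 without that array, and -0.93 ± 0.19 with Cripto (adjusted p = 0.000184). A second Peg3 probe changed by -0.38 with Nodal (adjusted p = 0.0959) and -0.06 with Cripto (adjusted p = 0.799). With arrays centred on their median, the first probe changed by -0.23 with Nodal and -0.33 with Cripto, neither past the threshold.

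**Figure D3:**
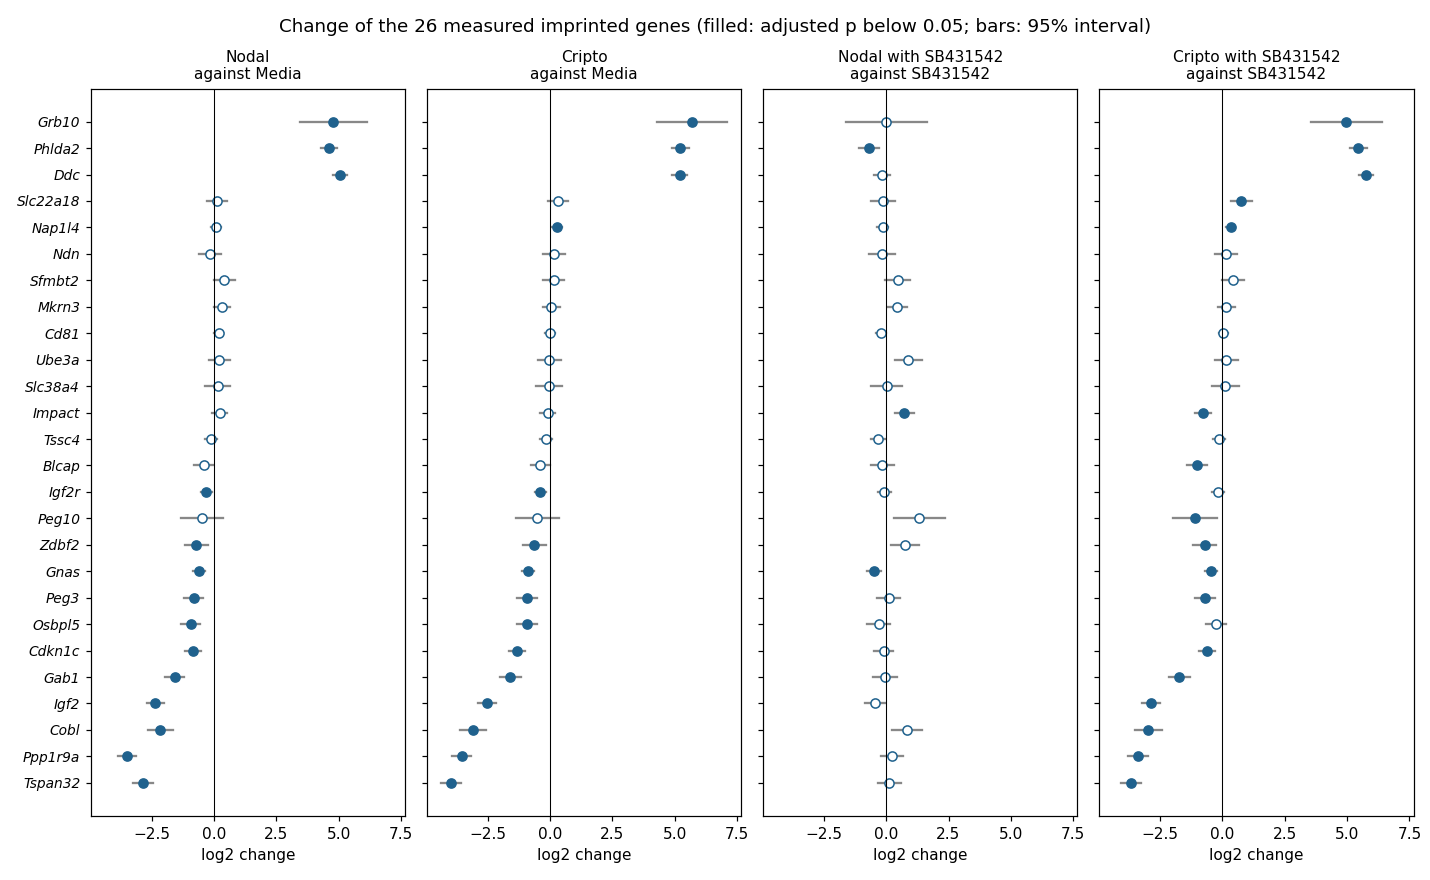
Log2 change (x axis) with its 95% interval of the 26 measured imprinted genes (rows, ordered by the Cripto change), for Nodal and for Cripto against Media and for each with SB431542 against SB431542 alone; filled points have an adjusted p below 0.05. Grb10, Phlda2 and Ddc are far to the right with Nodal, Cripto and Cripto with SB431542, and sit near or left of 0 with Nodal and SB431542.

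Of the 26 measured genes, 14 passed the test with Nodal against Media, 3 higher and 11 lower, beside 57.6% of all 9951 genes, of which 28.7% were higher and 28.9% lower. Without Nodal replicate 1 there were also 14, 3 higher and 11 lower, beside 61.9% of all genes. With Cripto against Media 15 passed, 4 higher and 11 lower, beside 64.5% of all genes (32% higher and 32.5% lower). Grb10, counted as higher in each, passed the detection filter only through groups where it was high. Zdbf2, counted as lower in each, did so too, since no Nodal, Cripto or Cripto with SB431542 array detected it. These shares of the listed genes (53.8% and 57.7%) are near the background, and the numbers describe the listed genes that could be measured, not the list. The median log2 change of the measured genes was -0.23 with Nodal and -0.27 with Cripto, and that of all genes 0.01 in each. The split depends on the scaling: with arrays centred on their median in place of quantile normalisation, which moved the median of all genes by 0.45 with Nodal and 0.44 with Cripto, the listed genes were 9 higher and 7 lower with Nodal, beside 50.6% of all genes higher and 11.7% lower, and 9 higher and 6 lower with Cripto, beside 50% and 15.5%. Of these 26, 14 are usually maternal, of which 2 rose and 6 fell with Nodal, and 11 paternal, of which 1 rose and 4 fell. Gnas, a signalling G protein subunit with transcripts from both copies, fell by 0.60 ± 0.11 with Nodal and fell by 0.89 ± 0.11 with Cripto. With arrays centred on their median it changed by -0.02 with Nodal and -0.31 with Cripto, neither past the threshold. Zdbf2 changed by -0.71 ± 0.22 and -0.63 ± 0.22, but the group means lay below the detection limit, so its size is not known. Given how it passed the detection filter, its calls are no further support. In array order, 2 of the listed genes lay above and 5 below all Media arrays with Nodal, beside 25.9% of all genes (11.4% above and 14.5% below), and 3 above and 8 below with Cripto, beside 37.8% (17.5% above and 20.4% below).

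The comparisons were also made within BeadChips. On the 5 BeadChips that held both, Nodal minus Media was 4.65 to 5.53 for Ddc, 4.33 to 4.87 for Phlda2 and -2.70 to -1.92 for Cobl. It was -3.76 to -2.23 for Tspan32, -4.05 to -2.80 for Ppp1r9a and -2.85 to -1.82 for Igf2, and 0.20 to 6.04 for Grb10, whose low value came from the BeadChip of Nodal replicate 1. On the 4 BeadChips with both Cripto and Media, Grb10 was higher by 5.28 to 5.86, Ddc by 4.76 to 5.78 and Phlda2 by 5.05 to 5.53. The size of a change depended on the background correction. Without that correction the Nodal change was 3.07 for Grb10, 3.71 for Ddc, 3.35 for Phlda2, -1.3 for Cobl and -1.25 for Igf2. In the authors' processed values the Nodal change was 2.32 for Grb10, 3.04 for Ddc, 2.69 for Phlda2, -0.89 for Cobl and -0.83 for Igf2, each past the threshold and in the same direction. The transformation behind those values is not given.

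SB431542 alone moved none of the 26 genes in the limma test against Media, as it moved none of the 9951 genes (0% called); at an unadjusted p below 0.05 there was 1 listed gene. For 24 of the 26 the 95% interval stayed within 2-fold, and for Grb10 and Peg10 it was wider. Log2 changes ran between -0.3 and 0.48.

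With Cripto and SB431542 against SB431542 alone, 17 passed, 5 higher and 12 lower, beside 65.5% of all genes (31.8% higher and 33.7% lower), with a median of -0.21 for the measured genes and -0.01 for all genes. With arrays centred on their median, which moved the median of all genes by 0.31, 7 were higher and 8 lower, beside 43.2% and 19.2% of all genes. Grb10 was at least 21.3-fold higher, Ddc rose by 5.76 ± 0.14 and Phlda2 by 5.44 ± 0.17. Blcap fell by 1.02 ± 0.19, Peg10 fell by 1.09 ± 0.43 and Impact, a regulator of the stress kinase Gcn2, fell by 0.77 ± 0.15. Peg10 was detected on 1 of 5 arrays with Cripto and SB431542, so the size of its change rests on values near background. With arrays centred on their median Impact changed by -0.3 and did not pass. A second Impact probe changed by 0.16 (adjusted p = 0.265). The fifth gene counted as higher, Slc22a18, was detected on 3 arrays with Cripto and SB431542 and 1 with Cripto, so it passed the detection filter only through arrays where it was high, and its call supports nothing. The same holds for the Grb10 probe used, detected only in groups where it was high, and for that of Zdbf2, counted as lower. The test of the difference itself, the Cripto change under SB431542 minus that without it, passed for none of the 26 in limma, beside 0.653% of all genes, with 6 at an unadjusted p below 0.05. Cripto with SB431542 against Cripto passed for 4 genes, 2 higher and 2 lower, beside 8.6% of all genes (4.22% higher and 4.38% lower). Cdkn1c rose by 0.80 ± 0.16 and Gnas by 0.48 ± 0.12, and Blcap fell by 0.81 ± 0.19 and Impact fell by 0.63 ± 0.15. The second Impact probe changed by 0.03 (adjusted p = 0.911). Without the BeadChip term all 4 calls were lost (adjusted p = 0.266 for Cdkn1c, 0.112 for Gnas, 0.22 for Blcap and 0.137 for Impact). With arrays centred on their median Cdkn1c (adjusted p = 0.0945), Gnas (0.216) and Impact (0.056) lost theirs. Without Cripto with SB431542 replicate 1 the calls of Gnas (0.0679), Blcap (0.0627) and Impact (0.0725) were lost, and Impact was also lost without Cripto replicate 2 or Cripto with SB431542 replicate 4. For 22 of 26 genes the interval of that difference stayed within 2-fold.

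Under SB431542, Nodal gave few calls. Nodal with SB431542 against SB431542 passed for 3 genes, 1 higher and 2 lower, beside 3.68% of all genes (3.2% higher and 0.482% lower). Impact was higher by 0.73 ± 0.17, Gnas fell by 0.49 ± 0.13 and Phlda2 fell by 0.69 ± 0.19 (adjusted p = 0.0467). The second Impact probe changed the other way, by -0.17 (adjusted p = 0.542). All 3 calls were weak: without 1 of the 28 arrays in turn, Phlda2 lost its call in 17 cases, Gnas in 13 and Impact in 7, and all 3 lost it with arrays centred on their median (adjusted p = 0.158 for Phlda2, 0.429 for Gnas and 0.075 for Impact) and without the BeadChip term (0.207, 0.313 and 0.323). The Phlda2 call held in 15 of 37 alternatives, with adjusted p up to 0.535. Nodal with SB431542 against Nodal passed for 15, 11 higher and 4 lower, beside 53.6% of all genes (26% higher and 27.6% lower), and without Nodal replicate 1 for 17, beside 58.8%. Among them, Grb10 and Zdbf2 passed the detection filter only through groups where they were high. Grb10 was at least 13.6-fold lower (at least 30.6-fold lower without Nodal replicate 1), Ddc fell by 5.50 ± 0.16 and Phlda2 fell by 5.15 ± 0.19, while Ppp1r9a was higher by 3.79 ± 0.22, Tspan32 by 2.96 ± 0.23 and Cobl by 2.92 ± 0.30. The test of the difference itself, the Nodal change under SB431542 minus that without it, passed for 13 of 26 genes, 9 higher and 4 lower, beside 43.9% of all genes (21.5% higher and 22.4% lower). In it the difference was -5.30 ± 0.25 for Phlda2, -5.20 ± 0.21 for Ddc and -4.78 ± 1.02 for Grb10 (a fitted value, since 3 of its 4 groups were not above background), and 3.73 ± 0.28 for Ppp1r9a. The Nodal with SB431542 group held 3 arrays, on BeadChips 1, 3 and 4 of 7, which shared a chip with SB431542 on 3 BeadChips and with Nodal on 2.

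Nodal and Cripto arrays differed directly for 4 of the 26 genes, 3 higher and 1 lower with Nodal, beside 25.1% of all genes (13.6% higher and 11.4% lower). They were Tspan32, Cobl and Cdkn1c (higher with Nodal, the last by 0.50 ± 0.15) and Phlda2 (lower). The calls of Cobl and Cdkn1c were lost with arrays centred on their median (adjusted p = 0.081 and 0.102). That of Cobl was also lost without background correction (0.36, adjusted p = 0.0822) and in the authors' processed values (0.22, adjusted p = 0.183). Cdkn1c lost its call without the BeadChip term (adjusted p = 0.331) and with BeadChip as a random term (adjusted p = 0.0645). That of Cdkn1c was also lost without any 1 of Nodal replicates 2, 4 and 5 or Cripto replicates 2 and 4 (adjusted p = 0.0513 to 0.083). For 23 of 26 genes the interval of the difference stayed within 2-fold. Grb10 differed by -0.90 ± 0.67 (adjusted p = 0.356), and without Nodal replicate 1 by 0.30 ± 0.14 (adjusted p = 0.105).

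**Figure D4:**
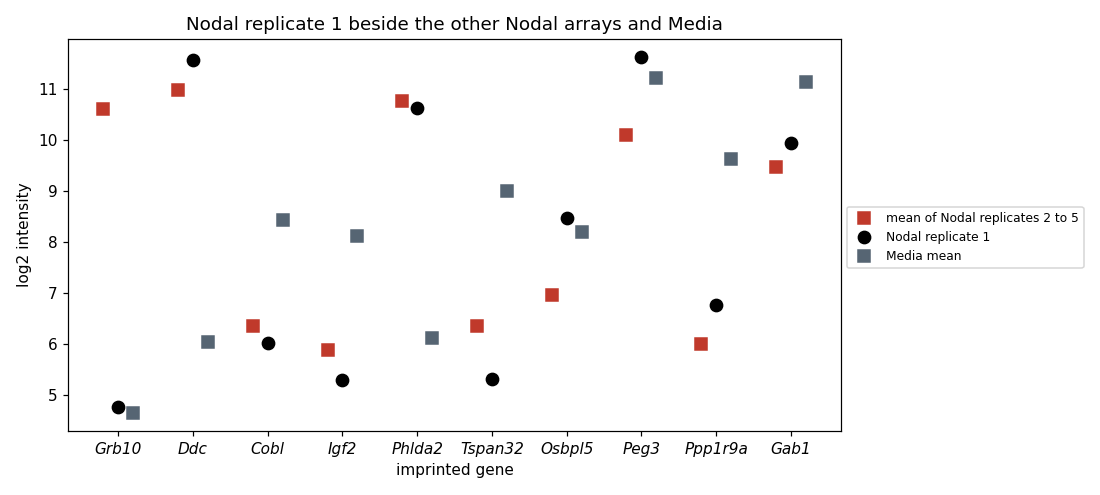
Log2 intensity (y axis) of the 10 imprinted genes that changed at least 2-fold without it, for the mean of Nodal replicates 2 to 5 (red square), Nodal replicate 1 (black circle) and the Media mean (grey square). Nodal replicate 1 has Grb10 at 4.76 by the Media mean of 4.65, while its Ddc, Cobl, Igf2, Phlda2 and Tspan32 are close to or past the mean of the other Nodal arrays.

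The place of Nodal replicate 1 differed from gene to gene. Its Ddc was 112% of the way from Media to the other Nodal arrays, its Tspan32 140% and its Phlda2 96.8%. Grb10 was 1.89% of the way, Osbpl5 -22.8% and Peg3 -36.8%. Ndn (necdin) read 7.91 on that array, against 9.28 to 9.49 on the other 4 Nodal arrays. This is 1 array, and no cause was tested.

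**Figure D5:**
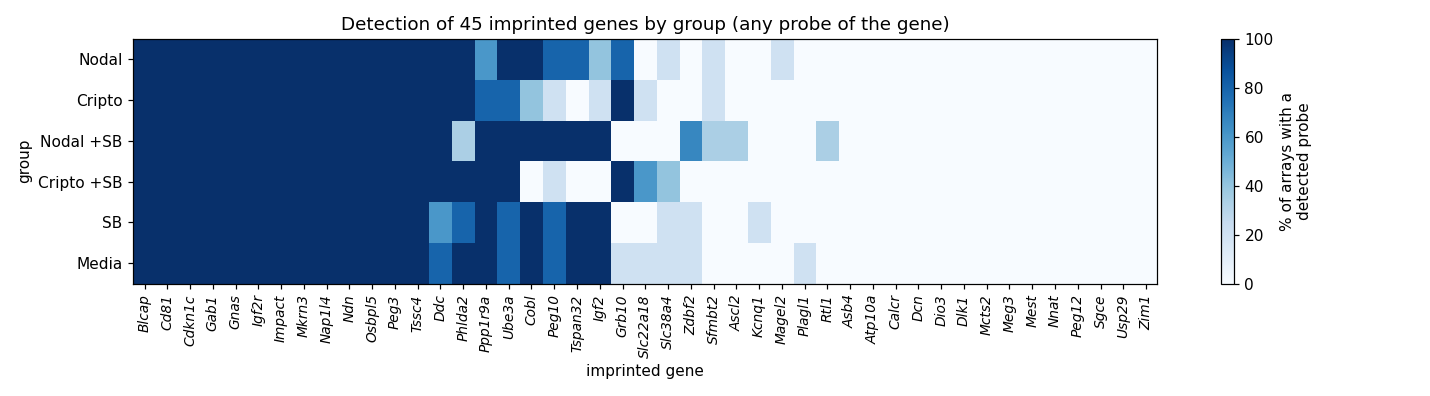
Percent of arrays with a detected probe (colour) for the 45 imprinted genes with a probe (columns) in the 6 groups (rows). 13 genes were detected on all 28 arrays and 14 on none; Grb10 was detected in Nodal, Cripto and Cripto with SB431542 arrays and on 1 Media array by a second probe.

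Of the 45 genes with a probe, 13 were detected on all 28 arrays, and 14 on none (Mest, Dcn, Nnat, Usp29, Zim1, Sgce, Asb4, Calcr, Peg12, Atp10a, Mcts2, Dlk1, Meg3 and Dio3). Rtl1, Kcnq1, Ascl2, Magel2 and Plagl1 were detected on 1 array each. The Dlk1 and Dio3 cluster of chromosome 12 had none of its 4 listed genes measured, and an array that does not detect a gene does not show that it is silent. Ndn and Mkrn3, on chromosome 7 in the Prader-Willi region, were detected on every array and did not pass the test against Media with Nodal or Cripto.

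Other imprinted genes, chosen from a separate list, were measured for 17 of 39. With Nodal 4 rose and 5 fell, beside 28.7% of all genes higher and 28.9% lower, and with Cripto 4 rose and 7 fell, beside 32% and 32.5%. The same shares stand behind the next 2 lists. Pon3, detected on no Nodal array, was at least 4.73-fold lower with Nodal and Pon2 fell by 1.77 ± 0.16, both paraoxonases of the Peg10 cluster, while Copg2 rose by 1.41 ± 0.45 and Trappc9 fell by 1.32 ± 0.17. Copg2 was detected on 1 of 5 Media arrays, so the size of its change rests on values near background. Pon3 was detected only in groups where it was high and passed the detection filter through them alone. Among 17 measured genes known to set or keep imprints, 4 rose and 4 fell with Nodal, and 7 rose and 2 fell with Cripto. Dnmt3l, the cofactor of the de novo DNA methyltransferases, rose by 2.02 ± 0.23 with Nodal and Dnmt3b by 1.26 ± 0.09, while Ctcf fell by 0.81 ± 0.13. Of 19 measured neighbours of the clusters, 3 rose and 10 fell with Nodal, and 7 rose and 9 fell with Cripto.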

How the data were processed

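Per the file headers, the authors deposited 1 file per array with a bead-averaged intensity per probe (45281 probes) and its detection p-value. BeadStudio and lumi are named, without versions, in the submitters' processing notes. The authors also deposited a table of processed values, which track the log2 intensity of each array (Pearson r of 0.981 to 1 across probes) with column medians of 7.85 to 7.88; its exact transformation is not given in the sources used here.

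Intensities were background-corrected, quantile-normalised and set to log2 with neqc of limma 3.58.1 in R 4.3.3 (offset 16, detection p in place of control probes). Of all probes, 34885 carried 1 gene symbol, 18 several and 10378 none. Probes with a detection p below 0.01 on at least 3 arrays (18471) were kept, and the probe with the highest mean stood for each of 9951 genes. Symbols are those of the platform annotation, replaced by the RefSeq symbol of the same gene identifier where there was one. limma was fitted to all 28 arrays with group and the 7 BeadChips as terms, two-sided, with Benjamini-Hochberg adjustment over all genes of a comparison, called below 0.05. The fit was tested on simulated data. A gene not detected on any array of a group has a bound: the fold is taken against the lowest signal among detected probes of each array, or the gene's own value if higher. The number of arrays limits the precision.

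Imprinted genes and the other lists were chosen with earlier results of these data known. Every array is given for Grb10, Ddc, Cobl, Phlda2 and Cdkn1c, and for the 6 further members with the largest change with Nodal or with Cripto against Media, in a comparison where they were called with 1 sign on every BeadChip (for Peg3, Cripto). Replicates are numbered in accession order. Alternatives covered background correction, scaling, filters, probe choice, the BeadChip term, moderation, the deposited values and each array left out. Figures were drawn with matplotlib 3.10.9.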

Additional observations from a re-analysis of the deposited data

Results flagged for a closer look

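For 13 listed genes the Nodal change under SB431542 differed from the Nodal change without it by the interaction test of limma. The difference in log2 change was -5.30 for Phlda2, -5.20 for Ddc, -4.78 for Grb10 and -0.41 for Cd81. It was 3.73 for Ppp1r9a, 2.98 for Cobl, 2.97 for Tspan32, 1.91 for Igf2, 1.79 for Peg10, 1.54 for Gab1, 1.46 for Zdbf2, 0.92 for Peg3 and 0.72 for Cdkn1c. Those of Grb10 and Zdbf2 are fitted values whose size is not known, since groups in them were not above background. Both genes passed the detection filter only through groups where they were high.

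Of 130 combinations of a gene and a group of 5 arrays, 15 (11.5%) held an array far from the other 4. Chance gives about 1 in 20, and over all 9951 genes the share was 7.7%; an excess was not tested. Nodal replicate 1 was such an array for 4 genes: Grb10 (4.76, against 10.54 to 10.70), Peg3 (11.63, against 10.05 to 10.21), Ndn (7.91, against 9.28 to 9.49) and Ppp1r9a (6.76, against 5.91 to 6.07). With Cripto, replicate 2 read 8.19 for Peg10, against 5.24 to 5.94. With Cripto and SB431542, replicate 1 read 8.02 for Gab1 and 7.35 for Blcap, and replicate 3 read 10.61 for Peg3. With SB431542 alone, replicate 4 read 4.93 for Ube3a and 8.90 for Ndn, and replicate 5 read 6.15 for Zdbf2. In Media, replicate 2 read 4.87 for Grb10, replicate 4 read 5.92 for Ube3a, and replicate 5 read 7.29 for Osbpl5 and 10.04 for Ppp1r9a. No cause was tested.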

How the results depend on the processing

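No paired analysis was possible because the labels carry no replicate numbers; the BeadChip was the block. No log2 change of the 11 genes described array by array reversed while called, over 37 alternatives each. Leaving out each array gave 13 to 17 listed genes called with Nodal against Media, 14 to 16 with Cripto against Media, 0 with SB431542 against Media, 15 to 18 with Cripto and SB431542 against SB431542, 13 to 17 with Nodal and SB431542 against Nodal and 12 to 15 in the Nodal and SB431542 interaction. It gave 0 to 5 with Nodal and SB431542 against SB431542, 1 to 5 with Cripto and SB431542 against Cripto, 3 to 5 with Nodal against Cripto and 0 to 1 in the Cripto and SB431542 interaction. For Nodal with SB431542 against SB431542 the 3 calls became 0 without any 1 of its 3 arrays or of SB431542 replicates 1, 2 and 3, and 5 without Cripto replicate 2, Media replicate 5, SB431542 replicate 5 or Cripto with SB431542 replicate 5. They became 1 without SB431542 replicate 4, Cripto replicates 3 or 4, Nodal replicate 4, or Cripto with SB431542 replicates 3 or 4. Cripto with SB431542 against Cripto gave 1 call without Cripto with SB431542 replicate 1. The Cripto interaction gave 1 without Nodal replicate 1, Cripto with SB431542 replicate 2 or Media replicate 5.

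For Nodal with SB431542 against SB431542, 5 were called with no background correction and with the deposited values, 1 with no detection filter, and 0 with median centring or without the BeadChip term. For Cripto with SB431542 against Cripto, 1 was called with median centring and 0 without the BeadChip term, and for Nodal against Cripto 2 with median centring. The cause was not tested. Of single-gene values, 27 lost and 6 gained a call under such settings, and 24 lost and 7 gained one with an array left out. A signal near background limits Grb10, Tspan32, Igf2, Cobl, Cdx2, Ikzf1, Pon3 and Kcnq1ot1 to bounds against groups where no array detected them, and gives Zdbf2 no size. Fitted changes of Igf2 and Cobl with Cripto, Igf2 with Nodal and Peg10 with Cripto and SB431542 also rest on values near background. So do those of Ppp1r9a with Nodal and with Cripto, and of Copg2 with Nodal. The same holds for Ddc where Media, SB431542 or Nodal with SB431542 arrays are used, and for Phlda2 where Nodal with SB431542 arrays are.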
